A study of Homo sapiens with 24 samples.

Results

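The tropomyosins TPM1, TPM2, TPM3 and TPM4 were followed as genes and as single transcripts in SK-MES-1, an established line of squamous lung cancer cells. All 4 genes were taken by name, and of their 75 listed transcripts, 14 are described singly because they held at least 10% of the TPM (transcript abundance scaled by length and depth) of their gene in some group. These were 2 of 32 for TPM1, 3 of 6 for TPM2, 7 of 23 for TPM3 and 2 of 14 for TPM4. Just inside this limit lay TPM3-220 at 10.02% and TPM3-216 at 10.05%, and just outside it lay TPM2-206 at 7.67% and TPM4-213 at 6.99%. Cells starved of serum for 3 h either received 2 ng/ml TGFβ1, a ligand that drives epithelial cells towards a mesenchymal state, or received none (untreated), and RNA was taken 0, 8, 24 and 48 h later. Each of these 8 groups had 3 replicates, 24 libraries in all, from this single line with no genetic change. The RNA is that of whole cultures, in which fewer cells of a type and less RNA per cell cannot be told apart.

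Tropomyosin is a coiled-coil dimer that lies head to tail along the actin filament and governs which other proteins, such as myosin motors, cofilin and the Arp2/3 complex, can act on it. Each mammalian gene gives several products. Long (high molecular weight) products begin at a distal first exon and short (low molecular weight) products at a first exon inside the gene, and long products are known from muscle and from stress fibres. TPM1 was among the genes that the study picked as candidates from these same libraries, so its rise here is not independent evidence.

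The libraries held 46613589 to 77964234 estimated counts, of which a tropomyosin gene took between 304 (TPM2) and 82992 (TPM1). The names of the deposited tables carry a code with 4 values, 1 per arm for 0 and 8 h and 1 per arm for 24 and 48 h. At a single time the arm and the code therefore cannot be told apart, while steps from 0 to 8 h and from 24 to 48 h are free of a constant offset between codes. Changes from 8 to 24 h and from 0 to 48 h cross codes, so time and code cannot be told apart in them. Replicate 2 at 0 and at 24 h stood apart in both arms: replicate pairs with one of these 4 libraries differed by a chi-square per gene of 14.7 to 60.5, the other pairs by 3.17 to 16.8, and the share of TPM3-207 in TPM3 was 26.6 to 33.3% against 12.5 to 23.9% in the other 20 libraries. Of 10 squamous or basal markers 6 reached 1 TPM in some library, while KRT5, KRT6A, KRT14 and DSG3 stayed below it in every library.

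The sequences that set both main TPM1 products apart are shown first, because the results turn on them. TPM1-206 (ENST00000358278, 284 residues) starts at the distal first exon, and TPM1-208 (ENST00000404484, 248 residues) starts 5786 bases further down at the internal first exon. In the GENCODE release 44 annotation of GRCh38 they share 7 coding exons with 612 bases, out of 9 with 852 bases in TPM1-206 and 8 with 744 bases in TPM1-208. The distal coding exons lie on the plus strand at chr15:63042830-63042943 and chr15:63044027-63044152, the internal one at chr15:63048576-63048707. TPM1-208 differs between the annotations, with 1568 bases in the deposited tables and 943 in the newer release used here, while TPM1-206 has 1717 in both. Capitals mark the start codon.
TPM1-206 first coding exon: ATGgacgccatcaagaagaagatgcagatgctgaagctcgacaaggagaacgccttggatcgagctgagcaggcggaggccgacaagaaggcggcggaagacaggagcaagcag
TPM1-206 second coding exon: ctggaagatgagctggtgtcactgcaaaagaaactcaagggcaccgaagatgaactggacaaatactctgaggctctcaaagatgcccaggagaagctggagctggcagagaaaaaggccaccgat
TPM1-208 first coding exon: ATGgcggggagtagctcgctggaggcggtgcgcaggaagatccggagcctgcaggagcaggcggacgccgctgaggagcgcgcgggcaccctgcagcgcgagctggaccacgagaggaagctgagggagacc

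**Figure D1:**
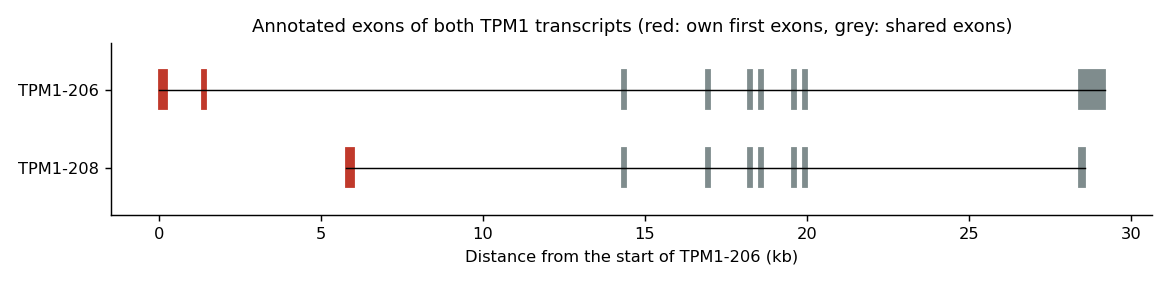
Annotated exons of TPM1-206 and TPM1-208, with the distance from the start of TPM1-206 in kb on the horizontal axis. Red boxes are exons that only one of both transcripts has, grey boxes the 7 at which they share coding sequence, and the internal start lies 5786 bases from the distal one. The exons are those of the newer annotation, in which TPM1-208 is shorter than in the deposited tables.

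TPM1 (ENSG00000140416, chr15:63042620-63071915, plus strand) rose more with TGFβ than the other tropomyosin genes. Untreated cells held 206, 213 and 206 TPM at 0 h, 194, 196 and 194 at 8 h, 149.9, 154 and 144 at 24 h, and 181, 180.0 and 187 at 48 h. The TGFβ arm held 199, 221 and 196 TPM at 0 h, 884, 867 and 900.5 at 8 h, 1308, 1544 and 1402 at 24 h, and 1668, 1712 and 1772 at 48 h. The arms overlapped at 0 h and were fully apart at 8, 24 and 48 h. By limma voom with Benjamini-Hochberg adjustment over 17453 genes, the log2 difference (TGFβ minus untreated, ± SE) was 2.26 ± 0.050 at 8 h (4.80-fold, adjusted p = 2.72e-18), 3.34 ± 0.050 at 24 h (10.1-fold, adjusted p = 2.1e-21) and 3.29 ± 0.050 at 48 h (9.80-fold, adjusted p = 2.26e-21), against 0.01 ± 0.053 at 0 h (adjusted p = 1.00). Ranked by the p of the overall F-test TPM1 stood at place 5 of all genes, and by its average increase at place 59.

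On the log2 scale, the TPM1 difference grew from 0 to 8 h and from 8 to 24 h. From 0 to 8 h, within codes, TPM1 rose by 2.08 ± 0.050 (log2) in the TGFβ arm and differed by -0.17 ± 0.053 in untreated cells (limma voom adjusted p = 5.71e-18 and 0.0151), and the change of the difference was 2.25 ± 0.073 (adjusted p = 5.64e-15). From 8 to 24 h, a step across codes, the difference grew by 1.08 ± 0.071 (adjusted p = 1.75e-09). From 24 to 48 h TPM1 rose in both arms, by 0.21 with TGFβ and 0.26 without, and the difference changed by -0.05 ± 0.071 (adjusted p = 0.735).

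TPM4 (ENSG00000167460, chr19:16067021-16103002, plus strand), a gene of short products in non-muscle cells, was the other gene higher with TGFβ at 8, 24 and 48 h. Untreated cells held 418, 468 and 415 TPM at 0 h, 375, 374 and 381 at 8 h, 308, 332 and 307 at 24 h, and 309, 312 and 321 at 48 h. The TGFβ arm held 399.9, 493 and 436 TPM at 0 h, 500.4, 485 and 499 at 8 h, 524, 619 and 529 at 24 h, and 497, 498 and 515 at 48 h. From 8 h on all TGFβ libraries lay above all untreated ones. The log2 difference was 0.44 ± 0.031 at 8 h (1.36-fold, limma voom adjusted p = 6.7e-10), 0.84 ± 0.032 at 24 h (1.79-fold, adjusted p = 6.99e-15) and 0.69 ± 0.032 at 48 h (1.61-fold, adjusted p = 1.84e-13). From 0 to 48 h, a step across codes, TPM4 changed by -0.56 ± 0.032 in untreated cells (adjusted p = 2.15e-12) and by 0.09 ± 0.032 in the TGFβ arm (adjusted p = 0.0222, not passing 0.01). From 0 to 8 h the values were -0.24 and 0.16, and the change of the difference was 0.40 ± 0.045 (adjusted p = 1.1e-06). On the TPM scale that change was 0.36 and no longer passed (limma-trend adjusted p = 0.0146).

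TPM3 (ENSG00000143549, chr1:154155308-154194648, minus strand), which gives short products common in non-muscle cells, fell with time in both arms. Untreated cells held 829, 879 and 838 TPM at 0 h, 706, 655 and 675 at 8 h, 570.0, 571 and 547 at 24 h, and 464, 476 and 474 at 48 h. The TGFβ arm held 745, 842 and 816 TPM at 0 h, 725, 669.8 and 673 at 8 h, 614, 640.0 and 589 at 24 h, and 462, 464 and 463 at 48 h. From 0 to 48 h, a step across codes, the log2 change was -0.89 ± 0.039 without and -0.89 ± 0.039 with TGFβ (limma voom adjusted p = 2.47e-14 and 2.06e-14). Within codes it fell as well, by 0.32 and 0.24 from 0 to 8 h and by 0.30 and 0.45 from 24 to 48 h. Scaled to the 4 reference genes of the study, the step from 24 to 48 h was 0.10 and -0.06 and did not pass. Between the arms TPM3 was higher with TGFβ at 24 h by 0.19 ± 0.039 (1.14-fold, adjusted p = 0.000488), while 0.11 at 8 h and 0.03 at 48 h did not pass (adjusted p = 0.0479 and 0.575). The value at 24 h did not pass with library totals (0.09, adjusted p = 0.0806) or with the difference at 0 h subtracted (0.16, adjusted p = 0.0399).

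TPM2 (ENSG00000198467, chr9:35681992-35690056, minus strand), known as a muscle tropomyosin, was the least abundant of the genes and rose with time in both arms. Untreated cells held 9.19, 9.27 and 9.58 TPM at 0 h, 12.7, 12.4 and 11.7 at 8 h, 22.9, 19.8 and 20.8 at 24 h, and 33.8, 32.4 and 32.2 at 48 h. The TGFβ arm held 8.42, 7.10 and 8.33 TPM at 0 h, 9.53, 9.10 and 9.51 at 8 h, 14.96, 14.1 and 15.1 at 24 h, and 34.2, 33.2 and 34.0 at 48 h. The TGFβ libraries thus lay below the untreated ones at 0, 8 and 24 h and overlapped them at 48 h. The rise from 0 to 48 h, a step across codes, was 1.78 ± 0.092 (log2) without (3.44-fold, limma voom adjusted p = 4.13e-13) and 2.11 ± 0.096 with TGFβ (4.31-fold, adjusted p = 4.25e-14).

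Between the arms TPM2 was lower with TGFβ at 24 h, with a log2 difference of -0.43 ± 0.087 (limma voom adjusted p = 0.000395). The difference was -0.27 ± 0.108 already at 0 h (adjusted p = 1.00), and with that subtracted the value at 24 h was -0.17 ± 0.138 (adjusted p = 0.447). At 8 h it was -0.34 ± 0.096 (adjusted p = 0.0127) and at 48 h 0.06 ± 0.078 (adjusted p = 0.591), neither of which passed. From 24 to 48 h, within codes, TPM2 rose by 1.13 ± 0.085 with TGFβ and 0.64 ± 0.080 without, and the change of the difference was 0.49 ± 0.116 (adjusted p = 0.0056). This call was lost when any one of 8 libraries was left out, at an adjusted p of up to 0.0233, and with edgeR (adjusted p = 0.0102).

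**Figure D2:**
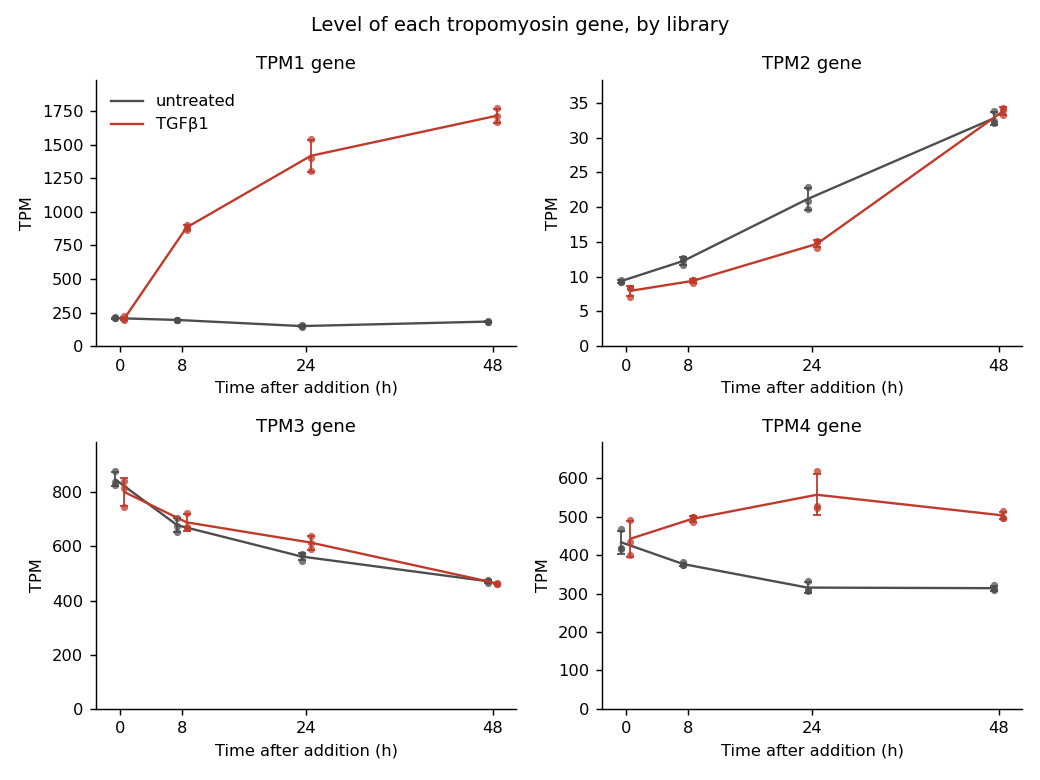
TPM of each tropomyosin gene (vertical axes, from 0) against the time in h (horizontal axes), with each library as a point and the mean ± SD of 3 libraries as lines and bars. At 48 h TPM1 reached 1668 to 1772 TPM with TGFβ against 180.0 to 187 in untreated cells.

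Against the background of all tested genes, 2 of the 4 genes were called higher at 8 h, where 9.12% of all genes were and 7.26% were lower. At 24 h 3 were higher and 1 lower (all genes 15.4% and 13.8%), and at 48 h 2 were higher (all genes 16.1%, with 16.4% lower). The 4 genes passed the F-test, as 42.5% of all genes did, and with the difference at 0 h subtracted TPM1 and TPM4 passed (limma voom adjusted p = 4.1e-18 and 4.01e-11) but TPM2 and TPM3 did not (0.0301 and 0.0679). TPM1 and TPM4 were called for the change of the difference from 0 to 8 h and from 8 to 24 h (all genes 7.88% and 6.69%), and TPM2 for that from 24 to 48 h (9.11%). Libraries of both arms did not overlap for 1, 3, 4 and 2 of the 4 genes at 0, 8, 24 and 48 h, against 6.99, 47.4, 40.3 and 55.1% of all genes. At 0 h limma voom called 0 genes, with 800 below an unadjusted p of 0.05, and edgeR called 0 and DESeq2 8.

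Changes within an arm were common over all genes. From 0 to 48 h, a step across codes, 55.1% of all genes changed without and 57.9% with TGFβ, and of the tropomyosins 4 and 3. From 0 to 8 h these were 25.9 and 33.8% of all genes and 3 and 3 tropomyosins, and from 24 to 48 h 28.4 and 25.8% and 3 and 4.

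**Figure D3:**
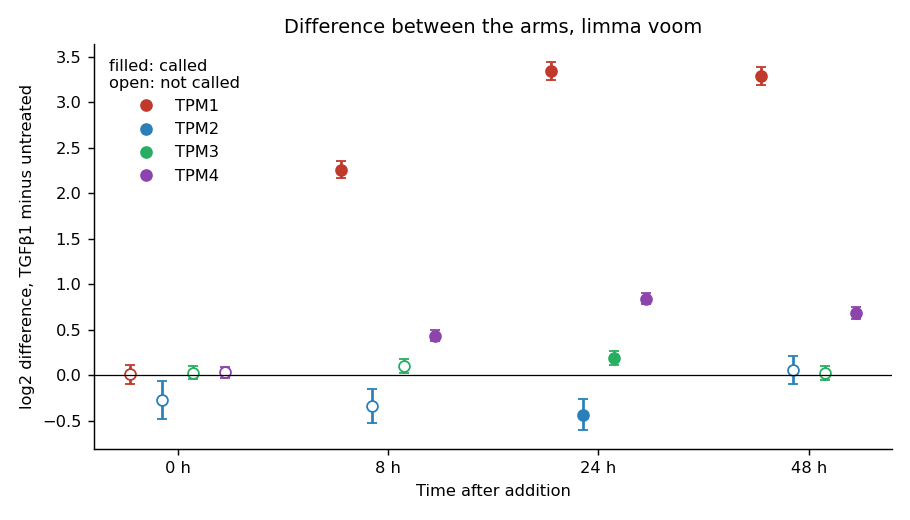
Log2 difference between the arms (TGFβ minus untreated, limma voom) of each tropomyosin gene against time in h, with bars for the 95% interval, filled points for an adjusted p below 0.01 and open points for the rest. TPM1 reached 3.34 and TPM4 0.84 at 24 h, and all points at 0 h are open.

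The order of the genes differed between the arms. In untreated cells it was TPM3, TPM4, TPM1 and TPM2 by TPM at every time, with no overlap of libraries between neighbours. With TGFβ, TPM1 stood first from 8 h on, TPM3 and TPM4 overlapped at 24 h (614 ± 25.6 and 557 ± 53.7 TPM, SD), and TPM4 stood above TPM3 at 48 h (503 ± 10.1 and 463 ± 1.01). Across codes, the summed TPM of the 4 genes went from 1499.7 ± 60.3 at 0 h to 1001 ± 12.9 at 48 h without TGFβ and from 1457 ± 105 to 2718 ± 62.0 with it. At 48 h TPM1 made up 18.3% of this sum without and 63.2% with TGFβ, and TPM3 made up 47.1 and 17.0%.

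Within TPM1 the long product TPM1-206 carried most of the rise. Untreated cells held 123, 133 and 117 TPM at 0 h, 106, 107 and 104 at 8 h, 68.3, 74.97 and 68.4 at 24 h, and 94.0, 93.1 and 100.2 at 48 h. The TGFβ arm held 113, 140.3 and 109 TPM at 0 h, 612, 606 and 635 at 8 h, 961, 1187 and 1049.5 at 24 h, and 1192, 1217 and 1292 at 48 h, above every untreated library from 8 h on. Its log2 differences at 8, 24 and 48 h were 2.61 ± 0.098, 3.95 ± 0.113 and 3.71 ± 0.103 (limma voom adjusted p = 5.06e-13, 3.6e-15 and 1.81e-15). Its share of the gene was 59.6 and 58.6% at 0 h and 52.4 and 71.8% at 48 h. Over 8, 24 and 48 h the share differed by 20.9 percentage points (exact stratified permutation test over 8000 relabellings, two-sided p = 0.00025, the smallest it can give).

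TPM1-208, the main short product without TGFβ, lost its place within the gene. Untreated cells held 36.6, 34.6 and 40.1 TPM at 0 h, 32.3, 31.5 and 35.5 at 8 h, 39.2, 33.5 and 37.9 at 24 h, and 35.2, 34.9 and 35.4 at 48 h. The TGFβ arm held 45.9, 30.5 and 43.7 TPM at 0 h, 19.9, 24.9 and 27.6 at 8 h, 13.4, 0 and 8.11 at 24 h, and 7.27, 3.74 and 0.292 at 48 h, below every untreated library of the same time from 8 h on. Its share of TPM1 was 17.0, 24.8 and 19.3% without and 2.73 ± 0.4302, 0.535 ± 0.516 and 0.223 ± 0.210% (SD) with TGFβ at 8, 24 and 48 h, a difference of -19.2 percentage points (exact permutation p = 0.00025).

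As a level, the difference of TPM1-208 was less certain, because its TGFβ libraries varied widely. Its log2 differences at 8, 24 and 48 h were -0.39 ± 0.570, -4.65 ± 1.249 and -4.04 ± 1.091, and none passed (limma voom adjusted p = 0.838, 0.0219 and 0.0197). The F-test passed (adjusted p = 0.00642), but not with the difference at 0 h subtracted (adjusted p = 0.0532), and it was lost when any one of 9 libraries was left out. One library, TGFβ replicate 2 at 24 h with a TPM of 0, decides the value at 24 h, which was -1.78 without it (adjusted p = 0.008). Without all replicates 2 at 0 and 24 h, the values at 24 and 48 h were -1.85 and -4.03 (limma voom adjusted p = 0.00586 and 0.000163).

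The other short transcripts of TPM1, which begin at the same internal first exon, moved the opposite way. Together these 4 transcripts held 9.65, 9.78 and 11.3 TPM at 48 h without and 46.9, 48.3 and 50.5 with TGFβ, and they were 4.50-fold higher over 8, 24 and 48 h (exact permutation p = 0.00025). Among them, TPM1-216 held 3.69 ± 0.419 and 25.01 ± 0.718 TPM, TPM1-204 1.97 ± 0.666 and 15.1 ± 1.48, and TPM1-203 4.58 ± 1.89 and 8.41 ± 1.18 at 48 h (SD), while TPM1-218 was listed at 0. With TPM1-208 included, the 5 short transcripts were 1.27-fold higher in sum with TGFβ (exact permutation p = 0.00025), so the summed short class did not fall. These comparisons were added after the values had been seen. The annotated lengths of TPM1-203, TPM1-204, TPM1-208 and TPM1-216 differ between the release behind the tables and the one used here, so their first exons are those of the newer release. Long and short transcripts share most exons, reads were divided among them by estimation, and the deposited tables give no error for that division.

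Grouped by the position of the annotated start, 17 TPM1 transcripts began at or near the distal first exon, 9 at or near the internal one and 6 further down. Among the 9, TPM1-223 starts at 63048813, past the end of the first exon of TPM1-208 at 63048707. It held at most 0.397% of the gene in the mean of a group. The distal group held 136 ± 4.86, 92.5 ± 6.32 and 124 ± 2.64 TPM (SD) at 8, 24 and 48 h without and 758 ± 11.7, 1286 ± 117 and 1579.7 ± 55.8 with TGFβ (9.94-fold on average, exact permutation p = 0.00025). The internal group lay between 48.7 and 55.3 TPM in all untreated libraries and held 97.5 ± 4.10, 95.02 ± 2.16 and 98.9 ± 3.08 with TGFβ (1.85-fold, exact permutation p = 0.00025). Both groups were thus higher in TPM with TGFβ. At 48 h the 5 short transcripts, all in the internal group, held 45.4 ± 1.14 TPM without and 52.3 ± 1.72 with TGFβ (SD). Most of the rise of that group thus lay in its other transcripts. Its estimated counts at 48 h, not adjusted for depth, were 1936 to 2623 without and 2397 to 2900 with TGFβ and overlapped. The share of the distal group was 73.1 and 72.1% at 0 h and differed by 22.8 percentage points from 8 h on (exact permutation p = 0.00025).

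**Figure D4:**
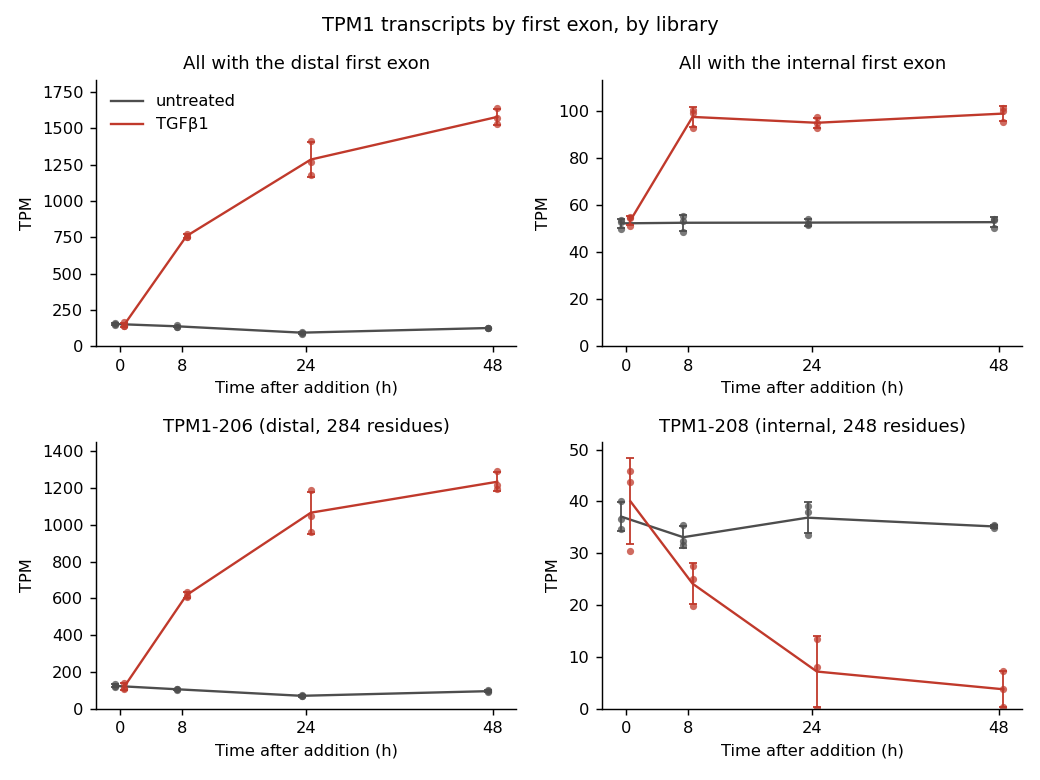
TPM (vertical axes, from 0, each panel on its own scale) of TPM1 transcripts and transcript groups against time in h. The groups hold all TPM1 transcripts that start at or near the distal or internal first exon, beside TPM1-206 and TPM1-208 alone. Each library is a point, with mean ± SD of 3 libraries as lines and bars. With TGFβ the internal group went from 53.5 to 98.9 TPM between 0 and 48 h, and TPM1-208, a member of it, from 40.0 to 3.77.

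Classed by the length of the product, long transcripts (280 or more residues) made up 69.8 and 68.8% of TPM1 at 0 h. At 8, 24 and 48 h they made up 62.9, 55.8 and 58.7% without and 79.1, 82.4 and 78.8% with TGFβ, a difference of 21.0 percentage points (exact permutation p = 0.00025). Short transcripts (240 to 260 residues) made up 24.9 and 3.05% at 48 h. The long class of TPM2 differed by -0.833 percentage points (exact permutation p = 0.648). In TPM3 it held at most 0.145% of the gene in a library, and no TPM4 transcript belongs to it. The rest was mostly not classed as short either. By the newer annotation, 60.5 to 73.4% of TPM3 and 99.7 to 100% of TPM4 in a library fell in neither class. TPM4-201, with 80.7 to 83.5% of TPM4 in the mean of a group, is typed there as a target of nonsense-mediated decay and was therefore not classed. TPM3-207 and TPM3-208 carry the same type. The unclassed part therefore does not show that TPM3 or TPM4 lacked short products.

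In TPM2 both long products, TPM2-202 and TPM2-201, differ in coding sequence at the sixth coding exon. It lies on the minus strand at chr9:35685064-35685139 and chr9:35684732-35684807. Whether they differ at other coding exons is not shown here. The exons are shown because reads can tell these products apart there, with differing bases in capitals. They are identical at 40 of 76 positions, and the sixth coding exon of TPM1-206 matches them at 52 and 38 positions.
TPM2-202 sixth coding exon: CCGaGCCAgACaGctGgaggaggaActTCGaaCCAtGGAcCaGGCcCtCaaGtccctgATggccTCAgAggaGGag
TPM2-201 sixth coding exon: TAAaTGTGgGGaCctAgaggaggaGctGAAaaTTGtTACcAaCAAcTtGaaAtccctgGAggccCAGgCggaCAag
TPM2-202 went from 4.29 ± 0.543 TPM at 0 h to 16.9 ± 1.44 at 48 h without and from 3.46 ± 0.789 to 17.2 ± 0.462 with TGFβ (SD). TPM2-201 went from 2.89 ± 0.171 to 11.9 ± 1.18 and from 2.74 ± 0.498 to 13.0 ± 0.744. Their shares differed between the arms by 0.309 and -1.14 percentage points, which did not pass (exact permutation p = 0.882 and 0.466). TPM2-203, annotated as a retained intron, held 8.01 to 17.0% of the gene in a group.

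Within TPM4 both described transcripts were higher with TGFβ. TPM4-201 held 314 ± 0.508, 255 ± 6.17 and 258 ± 1.42 TPM (SD) at 8, 24 and 48 h without and 413 ± 6.70, 452 ± 21.2 and 412 ± 7.11 with TGFβ, with log2 differences of 0.46 ± 0.025, 0.87 ± 0.028 and 0.69 ± 0.030 (limma voom adjusted p = 2.25e-10, 2.33e-14 and 1.25e-12). TPM4-202 held 43.4 ± 1.08, 39.7 ± 1.98 and 40.5 ± 2.27 TPM without and 45.0 ± 0.503, 54.5 ± 3.03 and 55.5 ± 3.19 with TGFβ, with log2 differences of 0.11 ± 0.064, 0.51 ± 0.065 and 0.48 ± 0.067, of which that at 8 h did not pass (adjusted p = 0.471, 1.62e-05 and 3.92e-05). The share of TPM4-202 differed by -2.35 percentage points (exact permutation p = 0.00025), from 10.8 ± 0.782 and 9.98 ± 0.215% at 0 h.

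TPM3 was the most evenly divided gene, with no described transcript above 25.2% in the mean of a group. TPM3-206, a short product of 248 residues, held 137, 132 and 130.4 TPM at 8 h without and 182, 168 and 171 with TGFβ, and 95.8, 79.9 and 89.7 and 101, 107 and 101 at 48 h. These values did not overlap, yet the log2 difference of 0.44 ± 0.142 at 8 h did not pass (limma voom adjusted p = 0.106). Without the replicates 2 at 0 and 24 h, it was 0.44 and passed (adjusted p = 1.14e-05). The shares of TPM3-206, TPM3-208 and TPM3-216 differed by 3.39, -2.13 and -2.29 percentage points (exact permutation p = 0.0143, 0.0127 and 0.002). TPM3-216 met the 10% limit narrowly, with its highest mean, 10.05%, in untreated cells at 48 h. That group enters this test, so the p of TPM3-216 is not independent of its choice. Offsets in the same directions were present at 0 h, at 15.7 and 19.97%, 14.4 and 11.2%, and 9.55 and 5.94%. The p-values of shares are those of 14 single tests and are not adjusted.

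Of the 14 transcripts, 3 were called higher and 1 lower in the F-test, which 9.19% of all tested transcripts passed. At 8, 24 and 48 h 2, 3 and 3 were called higher (all transcripts 1.82, 3.34 and 3.59%). In the test of usage (limma diffSplice, which sets a transcript against the others of its gene) TPM1-206 was higher and TPM1-208 lower at each of these times, where 0.208, 0.569 and 0.735% of all transcripts were called. The call of TPM1-206 at 8 h was lost with limma-trend on log2(TPM + 1) (adjusted p = 0.0921). On simulated data the usage test made false calls well above the rate its threshold allows, so a single call of it is less certain than one of the gene test. At 0 h that test called 0.292% of all transcripts and none of the 14.

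**Figure D5:**
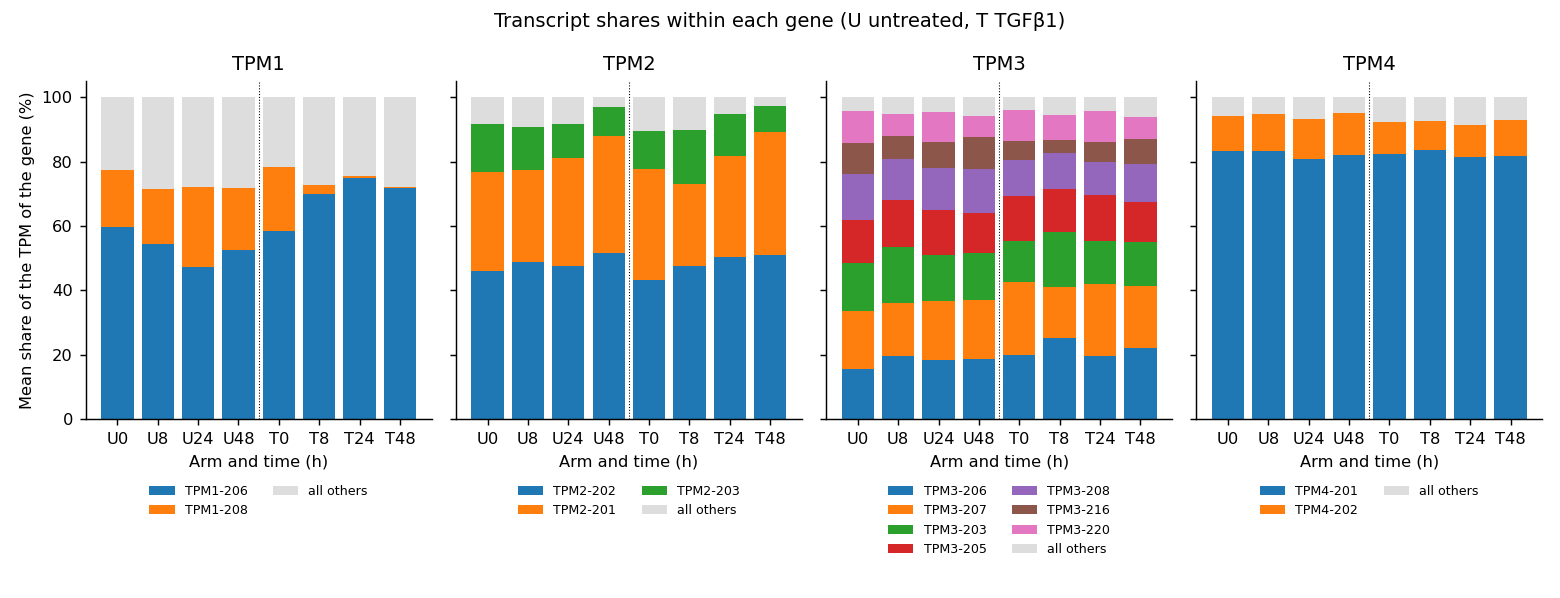
Mean share (%) of each described transcript in the TPM of its gene (vertical axis) for the 8 groups of 3 libraries (horizontal axis, U untreated and T TGFβ1, time in h), with all other transcripts in grey. With TGFβ, TPM1-208 went from 19.7% at 0 h to 0.223% at 48 h.

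Of 63 listed tropomyosin partners and splicing regulators, 55 were tested, and 17 were higher and 2 lower with TGFβ at 8 h, 15 and 5 at 24 h, and 24 and 6 at 48 h. Of all genes 9.12 and 7.26%, 15.4 and 13.8%, and 16.1 and 16.4% were called higher and lower at these times, so the lower calls of the list were not more frequent than those of all genes. The median log2 difference at 48 h was 0.18 over the list and -0.01 over all genes. Side binders of the filament were higher in 5 of 7 at 48 h (all genes 16.1%), among them CALD1 (caldesmon, log2 difference 0.86), CNN1 (calponin, 1.70, with group means up to 1.34 TPM) and TAGLN2 (transgelin 2, 0.32). The crosslinker FLNA (filamin A) was higher by 0.46, 0.90 and 0.61 at 8, 24 and 48 h.

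Of 5 pointed-end proteins, which bind the end of tropomyosin, 2 were higher and 1 lower at 48 h (all genes 16.1 and 16.4%), and TMOD3, the most abundant, differed by -0.02 and did not pass. Among 4 troponins, which sit on tropomyosin in striated muscle, TNNI2 (0.608 TPM without and 5.82 with TGFβ) and TNNT1 (log2 difference 0.29) were higher at 48 h. At 24 h the calcium-binding troponins TNNC1 and TNNC2 were lower by log2 differences of -1.43 and -1.71, with group means up to 1.53 and 0.671 TPM. Cofilin 1 (CFL1), which severs filaments and competes with some tropomyosins, differed by 0.10, 0.06 and 0.04 at 8, 24 and 48 h, and ARPC2, a subunit of the Arp2/3 complex, by 0.05, 0.07 and 0.07, and neither passed at any time. MRTFA, the actin-regulated partner of serum response factor, was higher by 1.08, 0.95 and 0.80. MYOCD, its muscle relative, was higher by 1.08 and 0.93 at 24 and 48 h, with group means up to 0.177 TPM. Of 14 splicing regulators 5 were higher and 2 lower at 48 h (all genes 16.1 and 16.4%), CELF2 among the latter (-1.73), and PTBP1, known to act on TPM1 exons, differed by 0.16, 0.15 and 0.02 and did not pass. Of the actins, ACTG1 was higher (1.56, 1.95 and 0.90) and ACTA2 lower at 48 h (-1.41), and the cardiac actin ACTC1 was higher (1.36, with group means up to 0.293 TPM), values that are uncertain because near-identical actin genes can exchange reads.

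Smooth muscle markers summed to 2.38 to 5.21 TPM over all libraries, with MYH11 at most 0.805 and DES at most 0.376 TPM, and striated muscle markers to 0.456 to 3.10. Endothelial and leukocyte markers stayed at or below 4.54 and 4.19 TPM in sum, with CD3E at 0. The sum of the fibroblast markers was 198 to 323 TPM in untreated libraries and at 0 h and 794 to 2414 with TGFβ at 8, 24 and 48 h. This sum was mostly COL1A1, which reached 2359 TPM, while each other marker of the list stayed at or below 24.1 and COL1A2 at or below 0.221, so the list as a whole is not shown to move. The squamous or basal markers were also higher in sum with TGFβ, at 67.5 to 69.5 against 57.4 to 58.4 TPM at 8 h, 84.3 to 98.2 against 65.7 to 70.2 at 24 h and 133 to 141 against 96.7 to 97.6 at 48 h. Over all libraries KRT17 alone ranged from 0.290 to 71.4 TPM and TP63 from 7.69 to 37.5, while 4 of the 10 markers stayed below 1 TPM. This list as a whole is therefore not shown to move either. The part of either marker list in the TPM1 result was not tested. Pseudogenes of TPM3 held 1.597 to 2.29% and those of TPM4 1.16 to 3.09% of the TPM of their parent gene.

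Over the means of the 8 groups, the genes most like TPM1 in course among 10056 genes were MFAP2, a microfibril protein (root mean square difference of centred log2(TPM + 1) 0.204), ITGB3, an integrin (0.255), and AQP1, a water channel (0.285). For TPM4 they were FLNA (0.0585), TMEM268 (0.0772) and MAP3K4 (0.0794). For TPM3 they were ADAM9 (0.0416), FBL (0.0430) and NUP93 (0.0541), and for TPM2 FCGRT (0.110), GPNMB (0.133) and B4GALNT4 (0.140). These genes were picked for their likeness, which is a description.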

How the data were processed

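RNA-Seq of SK-MES-1 cells gave 24 libraries, grouped by the arm, time and replicate number in the sample labels. The authors prepared total RNA libraries, sequenced them on an Illumina HiSeq instrument and quantified reads with kallisto 0.43.0 against Ensembl release 79 transcripts of GRCh38. The deposited estimated counts are the authors' expected reads per transcript, not whole and not normalized, and the deposited TPM values are the same counts per effective length, brought to a fixed total per library. Library totals ranged from 46613589 to 77964234 with a median of 54120879.

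Transcripts were assigned to genes, names and product lengths by GENCODE release 44, which matched 155518 of 173259 (94.8 to 95.2% of counts), and the other 17741 were left out. The releases differ, and 6 of the 14 transcripts have the same length in both. TPM1-208 is among those that changed, and TPM4-201 is now annotated as a target of nonsense-mediated decay. Counts were summed per gene, rounded and tested with limma 3.58.1 (voom, TMM factors, R 4.3.3) where at least 10 counts were present in at least 3 libraries, with a mean for each of the 8 groups. The threshold was a Benjamini-Hochberg adjusted p of 0.01, and the overall test was an F-test over the arm differences of the later 3 time points. Transcripts were tested likewise, and usage with diffSplice. Shares and sums of transcripts were compared by exchanging library labels within 8, 24 and 48 h (exact permutation, two-sided). The gene and usage tests were tested on simulated data, where false calls stayed few in the gene test and exceeded the threshold's rate in the usage test.

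edgeR 4.0.16, DESeq2 1.42.0, other scales and filters, a replicate block and each library left out in turn were tried as alternatives. The permutation tests of shares, the first-exon groups, the sum of short transcripts and leaving out the replicates 2 at 0 and 24 h were added after seeing the data. The replicate numbers come from the labels, which call the samples replicates without saying what a number shares. The genes and lists were chosen with earlier results of these data known. The partner genes named in the text are the most abundant of each class and those of at least 2-fold change that passed, plus CALD1, named after its values were seen. Some sequence context is not reported here.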

Additional observations from a re-analysis of the deposited data

Results flagged for a closer look

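For 3 tropomyosin genes the difference between the arms itself changed between time points (limma voom interaction, adjusted p below 0.01). TPM1 changed by 2.25 on the log2 scale from 0 to 8 h and by 1.08 from 8 to 24 h. TPM4 changed by 0.40 and by 0.40 in the same steps. TPM2 changed by 0.49 from 24 to 48 h, at the step at which its TGFβ libraries stopped lying below the untreated ones. The step from 8 to 24 h crosses the codes in the names of the tables, so a part from that code cannot be told apart there. With groups of 3 libraries, single outlying libraries were not flagged in this section. The replicates 2 at 0 and 24 h, which stood apart, and the fits with each library left out are described in the other sections.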

How the results depend on the processing

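The rise of TPM1 and TPM4 at 8, 24 and 48 h kept its direction and its call under every alternative run, and so did the TPM1 long share. Of 600 alternative values for differences and changes of the genes, leaving out single libraries aside, 536 kept direction and call. The cause of the exceptions was not tested. With edgeR, TPM2 change of the difference 24 to 48 h at 0.49 and TPM1-208 difference overall at -1.96 no longer passed, and TPM1 untreated 8 h against 0 h at -0.17 passed. With DESeq2, TPM1 untreated 8 h against 0 h at -0.18, TPM2 difference at 8 h at -0.34 and TPM4 change of the difference 24 to 48 h at -0.16 passed. With limma-trend on log2(TPM + 1), TPM3 difference at 24 h at 0.13, TPM3 difference overall at 0.041, TPM4 untreated 8 h against 0 h at -0.20, TPM4 TGFβ 8 h against 0 h at 0.17, TPM4 TGFβ 48 h against 24 h at -0.14, TPM4 change of the difference 0 to 8 h at 0.36 and TPM1-206 difference at 8 h, usage at 1.16 no longer passed, and TPM2 difference at 8 h at -0.35, TPM2 TGFβ 8 h against 0 h at 0.22, TPM1-208 difference at 24 h at -2.89, TPM1-208 difference at 48 h at -3.29, TPM2-201 difference at 24 h at -0.53 and TPM2-201 difference overall at -0.28 passed, and TPM1 difference at 0 h at -0.022, TPM3 difference at 0 h at -0.084, TPM3 difference at 48 h at -0.025, TPM2-203 difference at 8 h at -0.034, TPM3-207 difference at 8 h at -0.048, TPM3-203 difference overall at -0.028, TPM3-205 difference at 48 h at -0.0049, TPM2-202 difference at 24 h, usage at -0.041, TPM2-202 difference at 48 h, usage at 0.040 and TPM3-203 difference at 24 h, usage at 0.016 changed sign. With a pseudocount of 0.1, TPM3 difference at 24 h at 0.13, TPM3 difference overall at 0.041, TPM4 untreated 8 h against 0 h at -0.20, TPM4 TGFβ 8 h against 0 h at 0.17, TPM4 TGFβ 48 h against 24 h at -0.14 and TPM4 change of the difference 0 to 8 h at 0.37 no longer passed, and TPM2 difference at 8 h at -0.38 and TPM2 TGFβ 8 h against 0 h at 0.24 passed, and TPM1 difference at 0 h at -0.022, TPM3 difference at 0 h at -0.084 and TPM3 difference at 48 h at -0.025 changed sign. With library totals, TPM3 difference at 24 h at 0.094 and TPM3 difference overall at 0.022 no longer passed, and TPM2 difference at 8 h at -0.42 passed, and TPM1 difference at 0 h at -0.011, TPM2 difference at 48 h at -0.024 and TPM3 difference at 48 h at -0.051 changed sign. With upper-quartile factors, TPM3 difference overall at 0.063 no longer passed, and TPM2 difference at 8 h at -0.38 passed, and TPM3 difference at 48 h at -0.0097 changed sign. Scaled to 4 reference genes, TPM2 difference at 24 h at -0.082 and TPM3 TGFβ 48 h against 24 h at -0.058 no longer passed, and TPM2 difference at 48 h at 0.41, TPM2 TGFβ 8 h against 0 h at 0.32, TPM3 difference at 48 h at 0.38 and TPM3 change of the difference 8 to 24 h at 0.34 passed, and TPM2 difference overall at 0.027, TPM2 change of the difference 0 to 8 h at 0.028, TPM2 change of the difference 8 to 24 h at 0.16, TPM3 untreated 48 h against 24 h at 0.10, TPM4 untreated 48 h against 24 h at 0.36 and TPM4 TGFβ 48 h against 24 h at 0.20 changed sign. Both of these TPM4 steps passed in the new direction (limma voom adjusted p = 9.13e-06 untreated and 0.00248 with TGFβ). As reported, the TPM4 step with TGFβ was -0.20 and passed (adjusted p = 4.19e-05). The untreated one was -0.04 and did not (adjusted p = 0.364). The F-test of TPM2 difference overall passed with this scaling too (adjusted p = 3.25e-05), where the reported value was -0.24. Without a filter, TPM2 change of the difference 24 to 48 h at 0.49 no longer passed. With at least 50 counts, TPM2 difference at 8 h at -0.35 passed. With length-scaled counts, TPM4 TGFβ 8 h against 0 h at 0.15 no longer passed, and TPM2 difference at 8 h at -0.33 passed, and TPM3 difference at 0 h at -0.046 changed sign. With only the 6 libraries of a time point, TPM2 difference at 24 h at -0.42 and TPM3 difference at 24 h at 0.20 no longer passed, and TPM2 difference at 8 h at -0.33 and TPM3 difference at 8 h at 0.11 passed. With the difference at 0 h subtracted, TPM2 difference at 24 h at -0.17, TPM3 difference at 24 h at 0.16 and TPM3 difference overall at 0.077 no longer passed, and TPM2 difference overall at 0.029 and TPM3 difference at 48 h at -0.00086 changed sign. Without the replicates 2 at 0 and 24 h, TPM1 untreated 8 h against 0 h at -0.15, TPM2 difference at 8 h at -0.34, TPM3 difference at 8 h at 0.11, TPM3 change of the difference 24 to 48 h at -0.14, TPM4 change of the difference 24 to 48 h at -0.13, TPM1-208 difference at 24 h at -1.85, TPM1-208 difference at 48 h at -4.03, TPM3-206 difference at 8 h at 0.44, TPM3-206 difference at 24 h at 0.31 and TPM3-206 difference overall at 0.33 passed. With a replicate block, TPM1 untreated 8 h against 0 h at -0.17, TPM2 difference at 8 h at -0.34, TPM2 TGFβ 8 h against 0 h at 0.29 and TPM1-208 difference at 48 h at -3.93 passed, and TPM3-207 difference at 48 h, usage at -0.0017 changed sign. With single libraries left out in turn, the results in which a call or sign changed ranged as follows: TPM1 difference at 0 h -0.017 to 0.061, TPM1 untreated 8 h against 0 h -0.19 to -0.15, TPM1 change of the difference 24 to 48 h -0.11 to 0.010, TPM2 difference at 8 h -0.36 to -0.32, TPM2 untreated 8 h against 0 h 0.33 to 0.41, TPM2 change of the difference 0 to 8 h -0.21 to 0.0090, TPM2 change of the difference 24 to 48 h 0.41 to 0.56, TPM3 difference at 0 h -0.0024 to 0.065, TPM1-208 difference at 24 h -6.00 to -1.78, TPM1-208 difference at 48 h -4.97 to -2.72, TPM1-208 difference overall -3.48 to -2.07, TPM2-202 difference at 48 h -0.0078 to 0.091, TPM2-201 difference at 24 h -0.65 to -0.48, TPM2-201 difference overall -0.35 to -0.26, TPM2-203 difference at 8 h -0.083 to 0.12, TPM2-203 difference at 24 h -0.40 to 0.091, TPM2-203 difference at 48 h -0.33 to 0.042, TPM3-207 difference at 8 h -0.099 to 0.12, TPM3-207 difference at 48 h -0.11 to 0.17, TPM3-203 difference at 8 h -0.011 to 0.15, TPM3-203 difference at 24 h -0.11 to 0.28, TPM3-203 difference overall -0.046 to 0.082, TPM3-205 difference at 48 h -0.021 to 0.042, TPM3-216 difference at 24 h -0.40 to 0.094, TPM3-220 difference at 48 h -0.30 to 0.41, TPM2 share of long products -1.93 to 0.11, TPM3 share of long products -0.0058 to 0.015. Where an arm then has 2 libraries, the spread is pooled over the other groups.

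Library totals moved the median of all genes to -0.10, -0.11 and -0.10 at 8, 24 and 48 h, with 33.9, 34.2 and 35.6% of calls higher, against 55.7, 52.7 and 49.5% as reported. The 4 reference genes moved it to 0.08, 0.34 and 0.34 and raised the calls over all genes to 9282 at 24 h and 9457 at 48 h, from 5112 and 5686. Upper-quartile factors gave 44.7, 42.0 and 42.2% higher. Fits on the 6 libraries of a time point called 5304 genes at 8 h and 2769 at 24 h, and leaving out the replicates 2 gave 4785 at 8 h, from 2859.

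Same-numbered libraries did not deviate together throughout (correlations of -0.0531 to 0.271), so the numbers were not taken to pair them. The correlations were 0.0698 to 0.271 at 0 and 24 h, highest for replicate 2 at both times. At 8 and 48 h they were -0.0531 to 0.0927. The replicate block called 3198, 5657 and 6226 genes at 8, 24 and 48 h. For TPM2 the long share counted over complete coding sequences gave no value, since all of these are long. The p-values measure the spread between these libraries, and low transcripts such as TPM1-208 are limited by the division of reads among isoforms.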
